A study of Mus musculus with 14 samples.

Results

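Lrp2, Cubn, Amn, Dab2 and Lrpap1 are 5 genes of the machinery with which the endoderm of the yolk sac takes up protein, lipid and vitamins. Here they were followed by chromatin accessibility while mouse embryonic stem (ES) cells were driven towards primitive endoderm (PrE) by the transcription factor GATA6. Their regions were chosen by position. The peaks of all 14 libraries were merged where they overlapped by 1 bp or more, and a merged region was given to one of the 5 genes when that gene had the nearest protein-coding gene start to the region's midpoint, within 50 kb. This gave 50 regions of the 84402 that could be assigned to a protein-coding gene, out of 124598 merged regions in all. Lrp2 received 13 regions, Cubn 15, Amn 9, Lrpap1 10 and Dab2 3.

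Open chromatin was read by ATAC-seq, which lets a transposase insert sequencing adapters where DNA is accessible, in KH2 ES cells (C57BL/6) carrying a TRE:GATA6-DSREd2 transgene, so that doxycycline (Dox) switches GATA6 on. All libraries came from this line and from 50000 unsorted cells each. The 0 h cells grew without Dox in serum-free 2i/LIF medium, which holds ES cells in a naive state. The 2, 4 and 8 h cells were in serum medium with 1 µg/mL Dox, and the 16, 24 and 48 h cells had Dox for the first 12 h only. There were 2 libraries at each of 7 time points. No cells were moved to serum without Dox, so the medium and GATA6 cannot be told apart in any comparison with 0 h. The induced GATA6 comes from a transgene, and no peak list shows its level. The labels do not say that the libraries of a time point were separate cultures, and p-values measure only the spread between these samples.

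The 14 peak lists held 55588 to 65073 peaks, and replicate 2 had the longer list at 7 of 7 time points. The lists carry no read numbers, and sequencing depth was not used here, so a missing peak means that none was called and not that the DNA was closed. In bulk cells, more cells with an open region and wider opening in each cell cannot be told apart. Among markers of cell identity, 4 of 5 PrE genes (Gata4, Sox17, Pdgfra and Foxa2, but not Sox7) gained called regions with time. Of 6 ES and epiblast markers 1 gained (Klf4) and none lost, and none of 3 trophectoderm, 2 mesoderm and 2 neural markers passed the test in either direction. Summed over the 5 PrE markers, 12 to 14 regions were called per library at 0 h and 44 to 45 at 48 h. For the ES and epiblast markers these sums were 35 to 42 and 44 in each library, for trophectoderm 14 to 17 and 15 to 18, for mesoderm 8 to 10 and 8 to 9, and for neural markers 9 to 11 and 7 to 12. Their part in the results for the 5 genes was not tested.

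The visceral endoderm, which descends from PrE, absorbs maternal nutrients before the placenta works, and the same receptors later serve the proximal tubule of the kidney. Megalin (LRP2) is a very large receptor of the LDL receptor family that spans the membrane and binds many ligands. Cubilin (CUBN), the receptor for intrinsic factor and vitamin B12, has no membrane span of its own and is carried to the surface by amnionless (AMN). The receptor-associated protein RAP (LRPAP1) is a chaperone that keeps ligands off LDL receptor family members in the endoplasmic reticulum. DAB2 is an adaptor that links the tails of such receptors to clathrin. GATA factors bind short words built around GATA, and binding of GATA6 is known to open chromatin.

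The 6 sequences that follow are the central 200 bp of regions on which the results turn, read from the + strand of GRCm38. For each of Lrp2, Cubn, Amn and Lrpap1 the first region to open after 0 h within 5 kb of the start is shown. The others are the strongest distal region of Dab2 at 48 h and, for contrast, the late region at the Cubn start. Capitals mark GATA words, which are AGATAA or AGATAG or TGATAA or TGATAG on either strand, so that a word on the other strand reads TTATCT or CTATCT or TTATCA or CTATCA.
Lrp2, 3.05 kb downstream of the start, opened at 2 h (chr2:69582916-69583115): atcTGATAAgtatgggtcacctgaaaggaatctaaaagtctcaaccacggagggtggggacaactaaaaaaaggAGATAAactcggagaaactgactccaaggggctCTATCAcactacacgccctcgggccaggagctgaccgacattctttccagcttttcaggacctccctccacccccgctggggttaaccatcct
Cubn, 2.2 kb downstream of the start, opened at 2 h (chr2:13489513-13489712): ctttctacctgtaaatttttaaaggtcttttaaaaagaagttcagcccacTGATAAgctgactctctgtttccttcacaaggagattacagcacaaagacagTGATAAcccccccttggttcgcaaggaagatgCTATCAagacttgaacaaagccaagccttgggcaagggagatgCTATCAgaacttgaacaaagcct
Amn, 2.99 kb upstream of the start, opened at 4 h (chr12:111268007-111268206): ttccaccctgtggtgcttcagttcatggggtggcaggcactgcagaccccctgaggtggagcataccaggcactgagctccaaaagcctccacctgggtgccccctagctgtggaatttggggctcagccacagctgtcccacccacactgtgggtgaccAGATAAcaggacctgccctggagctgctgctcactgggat
Lrpap1, 2.1 kb downstream of the start, opened at 4 h (chr5:35103564-35103763): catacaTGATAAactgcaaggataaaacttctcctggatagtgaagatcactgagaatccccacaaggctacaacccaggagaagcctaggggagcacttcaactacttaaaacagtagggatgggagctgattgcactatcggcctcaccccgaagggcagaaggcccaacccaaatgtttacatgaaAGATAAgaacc
Dab2, 75.6 kb downstream of the gene start, opened at 16 h (chr15:6375261-6375460): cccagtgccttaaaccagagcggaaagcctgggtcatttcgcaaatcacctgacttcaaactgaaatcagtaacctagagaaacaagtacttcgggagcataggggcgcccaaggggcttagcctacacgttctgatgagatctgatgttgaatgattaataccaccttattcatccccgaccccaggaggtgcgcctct
Cubn, start site, called at 48 h (chr2:13491902-13492101): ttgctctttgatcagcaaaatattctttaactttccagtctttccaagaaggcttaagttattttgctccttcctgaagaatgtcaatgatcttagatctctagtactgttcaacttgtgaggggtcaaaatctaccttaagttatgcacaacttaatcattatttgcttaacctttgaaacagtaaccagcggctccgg
The early Lrp2 window held 3 GATA words, the Cubn window 4, the Amn window 1 and the Lrpap1 window 2. The Dab2 window and the window at the Cubn start held none. Regions not shown went the other way. The Lrpap1 region 26.0 kb upstream opened at 2 h and held none, and the Lrp2 region 21.8 kb upstream opened at 48 h and held 3. A word is a match of letters and not a measured binding site.

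Near the 5 genes 21 of 50 regions were gained and 5 lost at 48 h against 0 h. More could be gained (36 with no 0 h peak) than lost (7 with a peak in both 0 h libraries). At 0 h the libraries called 9 and 12 of the 50 regions. In neither were 36 of the 50 called, beside 38958 of all 84402 assigned regions. The 2 h libraries called 13 and 17, the 4 h libraries 18 and 18, the 8 h libraries 22 and 22, the 16 h libraries 28 and 31, the 24 h libraries 26 and 27, and the 48 h libraries 26 and 28. Every library from 2 h on lay above both 0 h libraries, and every library from 16 h on lay above all those up to 8 h. Over all assigned regions the share called stayed between 45.7% and 54.0% in every library, while for the 50 regions it went from 18.0% and 24.0% at 0 h to 52% and 56.0% at 48 h. The libraries of a time point gave the same answer in 309 of 350 pairs of region and time point (88.3%).

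**Figure D1:**
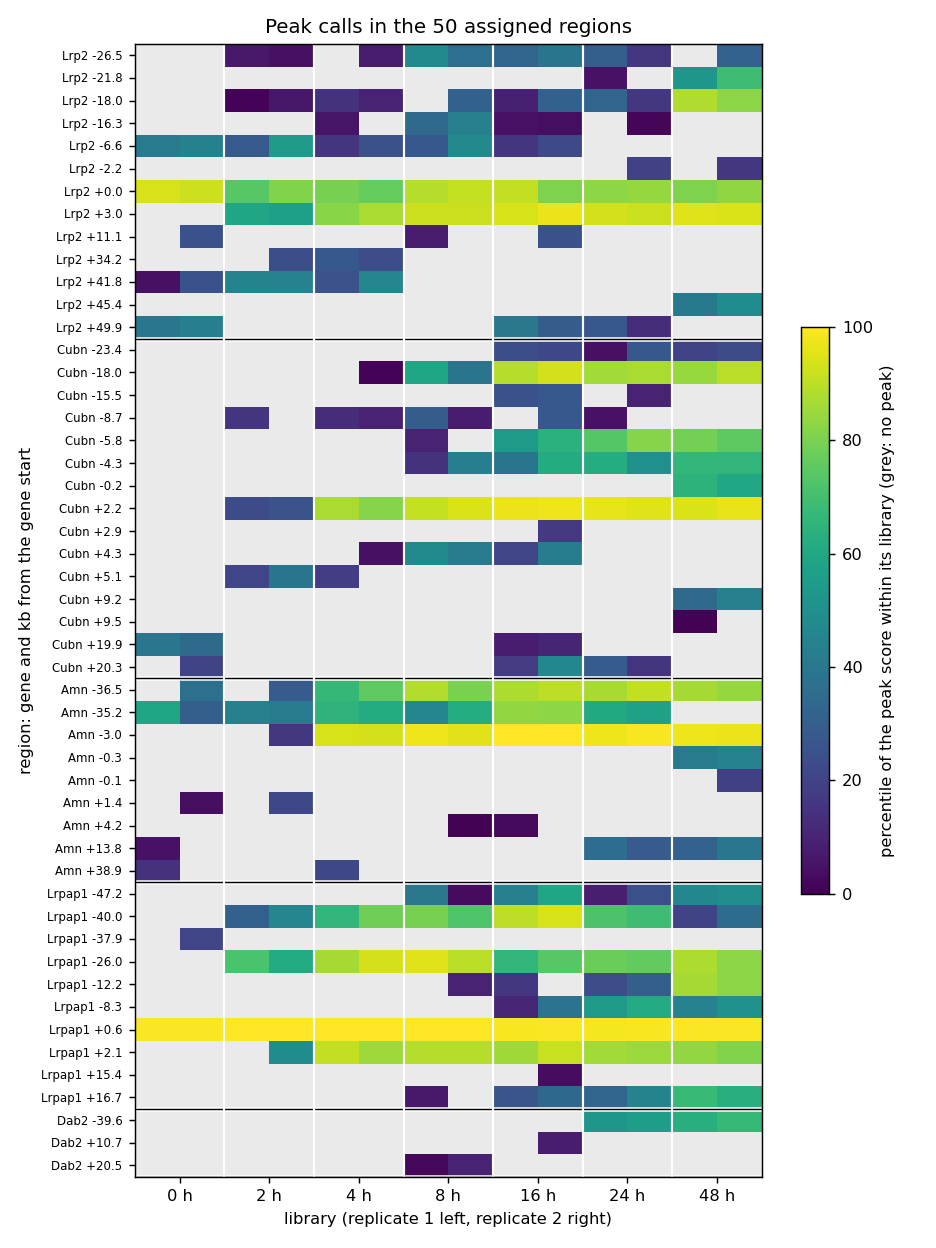
Peak calls in the 50 regions, 1 row per region (gene and distance from its start in kb) and 1 column per library, coloured by the percentile of the peak's score within its library, with grey where no peak was called. In 36 rows both 0 h columns are grey and in 25 rows both 48 h columns are coloured, the rows at the starts of Lrp2 and Lrpap1 are coloured throughout, and 6 Lrp2 rows with earlier peaks are grey at 48 h, 3 of them lost regions that both 0 h libraries called. Of all 84402 assigned regions, 38958 had no 0 h peak and 34811 had a peak in both 48 h libraries.

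A region was called gained when both libraries of a later time point had a peak there and neither 0 h library did, lost in the opposite case, and shared when all 4 had one. At 2 h, 7 of 50 regions were gained (14%), beside 7.88% of all assigned regions. At 4 h 9 members were gained (18.0%), against a background of 9.12%. At 8 h they were 14 (28.0%) against 10.3%, at 16 h 18 (36.0%) against 12.6%, and at 24 h 17 (34.0%) against 11.4%. At 48 h 21 of 50 regions were gained (42.0%), beside 14.1% of all assigned regions. Counted over regions with no peak at 0 h, 21 of 36 members were gained and 11910 of all 38958. The share gained at the 5 genes thus lay above that of all assigned regions at each of the 6 later time points.

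Few of the 50 regions could be lost, since 7 had a peak in both 0 h libraries. From 2 h to 48 h the losses numbered 2, 2, 3, 1, 3 and 5 in turn (4.0%, 4.0%, 6.0%, 2.0%, 6.0% and 10.0%). The background for these times was 5.61%, 6.34%, 8.27%, 8.0%, 11% and 14.4%. Of the regions with a peak in both 0 h libraries, 5 of 7 members were lost at 48 h (71.4%) and 12124 of all 34050 (35.6%). Between 0 h and 48 h 2 of the 50 regions were shared, beside 23.4% of all assigned regions. An exact two-sided test of 2 libraries against 2 cannot give a p below 0.3333. None of these classes therefore has a test, and the regions are not replicates of one another. Counted without the first 0 h library, 9 regions were lost. Within serum medium, 48 h was also set against 2 h, a comparison added after the data were seen. There 15 of the 50 regions were gained, beside 11140 of all 84402 assigned regions (13.2%). Lost were 4 of the 50, beside 12534 of all assigned regions (14.9%).

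Of the 21 gained regions, 15 lay upstream of their gene, 4 in an intron, 1 over an exon and 1 downstream. In 2 cases the midpoint was within 1 kb of the start and in 7 within 5 kb. A further 7 of the 50 regions were transient, called in both libraries of some middle time point and in none at 0 h and 48 h. That is 14%, beside 12.4% of all assigned regions. Transient peaks ranked low, with a median percentile of 20.8 over all their calls and none above 47.3. The mean percentile of the gained regions at 48 h had a median of 65.3, which is taken at 1 time point and is not the same measure.

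For each region, an exact two-sided permutation test asked whether the libraries calling it lay late or early in the series, with Benjamini-Hochberg adjustment over 79559 regions called in 2 to 12 libraries. Of the 42 member regions that could be tested 12 rose (28.6%), beside 12.1% of all regions tested, and 2 fell (4.76%), beside 12.3%. All 12 that rose were among the 21 gained, and 3 of them (Lrp2 21.8 kb upstream, Amn 2.99 kb upstream and Lrpap1 2.1 kb downstream) stood close to the threshold, at an adjusted p of 0.0451. Of the other 9 gained regions, 8 sat at the smallest p that a region called in 2 or in 12 libraries can reach (p = 0.022, adjusted p = 0.0541 by this exact test), so the test could not call a region that opened at 2 h for good or one that opened only at 48 h. With each library cut to its 50000 highest peaks, 22 member regions rose and 4 fell. No share over all regions is given for that setting. In the test per gene described below, rising calls also grew there, to 2092 of 15477 genes from 1667 of 16259.

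The genes opened in a different order. A region's opening time is the first time point from which both libraries had a peak there at that and every later time. By this measure 23 of the 50 regions opened between 2 and 48 h (46.0%, beside 22% of all assigned regions). They were spread through the series. The numbers opening from 2 h to 48 h were 4, 3, 3, 5, 3 and 5 in turn, with a median of 16 h. Over all assigned regions the median was 24 h, and 36.5% of those that opened did so at 48 h, beside 21.7% of the member regions that opened. Lrpap1 had the earliest median, 8 h over 7 regions, followed by Amn at 14 h over 4, Cubn at 16 h over 7, Dab2 at 24 h for 1 region and Lrp2 at 32 h over 4. The first region opened at 2 h for Lrp2, Cubn and Lrpap1 and at 4 h for Amn. These orders rest on few regions per gene and were not tested. If a single time point with both libraries is enough, the median of all member regions is 8 h.

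**Figure D2:**
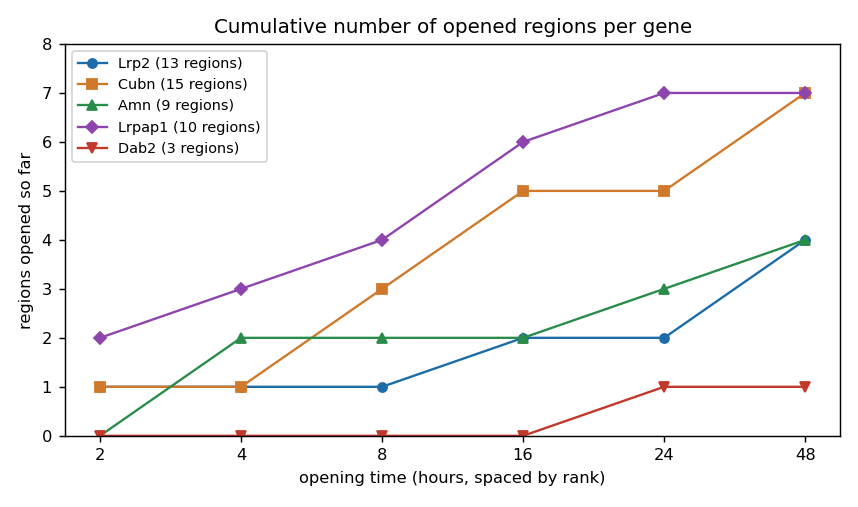
Number of regions of each gene that had opened by each time point (x axis, hours spaced by rank; y axis, regions opened so far). Lrpap1 climbs from 2 regions at 2 h to 7 at 24 h, Cubn reaches 7 only at 48 h, Lrp2 and Amn end at 4, and Dab2 has 1.

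Lrp2 (megalin, ENSMUSG00000027070, chromosome 2, 69424340 to 69586065, minus strand) had gains and losses side by side and no overall trend. Its number of called regions per library was 4 and 5 at 0 h, 6 and 7 at 2 h, 7 and 7 at 4 h, 6 and 6 at 8 h, 7 and 8 at 16 h, 6 and 7 at 24 h, and 5 and 7 at 48 h. The 0 h libraries were the lowest, but one of the 48 h libraries equalled the higher of them. Spearman's rho with time over the 14 libraries was 0.299 (permutation p = 0.299, adjusted p = 0.466 over 16259 genes with 100000 shuffles), beside 10.3% of genes rising and 8.75% falling. Pearson's r was 0.104 (permutation p = 0.735), and 0.441 without the 48 h libraries (p = 0.161). A wider count took every region in the gene body or within 50 kb of the start, whichever gene's start was nearest. By this count the trend passed (rho = 0.738, adjusted p = 0.0272 by the same permutation test). Only the 5 genes were counted in this wider way, so the adjusted p sets them beside genes counted by the nearest start. By the nearest-start rule, rho without the 0 h libraries was -0.108 (adjusted p = 0.868, permutation test).

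The region over the Lrp2 start (69585634 to 69586468, over an exon with UTR) had a peak in all 14 libraries, as 19.2% of assigned regions did. Its score percentile within the library was 93.9 and 92.2 at 0 h, 74.1 and 81.1 at 2 h, 79.4 and 76.5 at 4 h, 88.9 and 91.1 at 8 h, 90.8 and 80.5 at 16 h, 83.1 and 84.2 at 24 h, and 80.6 and 83.5 at 48 h. The 0 h libraries ranked highest and those at 2 and 4 h lowest, and the series showed no trend (rho = -0.124, adjusted p = 0.781, permutation test over 18809 regions called everywhere, of which 19.7% rose and 9.85% fell).

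What changed at Lrp2 lay beside the start. The intronic region 3.05 kb downstream of it (69582756 to 69583276), which holds the first sequence shown above, was called in neither 0 h library and in all 12 later ones. Its percentile was 58.8 and 56.6 at 2 h, 82.3 and 87.4 at 4 h, 92.2 and 91.8 at 8 h, 94.0 and 97.0 at 16 h, 93.2 and 92.1 at 24 h, and 95.1 and 94.5 at 48 h. From 4 h on it ranked above the region at the start in every library. The region 18.0 kb upstream was called in both libraries at every later time point but 8 h, where 1 called it, and reached percentiles of 88.2 and 82.5 at 48 h from at most 32.7 before (p = 0.0879, adjusted p = 0.177, exact permutation test). The region 21.8 kb upstream, with 3 GATA words, was late, with 1 library at 24 h and both at 48 h, at percentiles of 53.0 and 69.0. It rose (p = 0.011, adjusted p = 0.0451, exact permutation test).

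Lrp2 held 3 of the 5 lost regions and both regions that fell. The region 6.64 kb upstream was called in both libraries up to 16 h and in none at 24 and 48 h (p = 0.002, adjusted p = 0.013, exact permutation test). Its percentile was 41.1 and 44.1 at 0 h and 15.1 and 21.9 at 16 h. The intronic region 41.8 kb downstream was called in both libraries at 0, 2 and 4 h and in none from 8 h on (p = 0.000666, adjusted p = 0.013, exact permutation test). The third, 49.9 kb downstream and over an exon, was called at 0 h, 16 h and 24 h and at no other time, so it has no direction (p = 1.0, exact permutation test).

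Cubn (cubilin, ENSMUSG00000026726, chromosome 2, 13276338 to 13491813, minus strand) started from almost no called regions and gained them steadily to 16 h. The number called was 1 and 2 at 0 h, 3 and 2 at 2 h, 3 and 4 at 4 h, 6 and 5 at 8 h, 9 and 11 at 16 h, 7 and 7 at 24 h, and 8 and 7 at 48 h. The libraries from 8 h on all lay above those up to 4 h, and both 16 h libraries were above both at 24 and 48 h. The count rose with time (rho = 0.874, p = 0.00016, adjusted p = 0.00505, permutation test). Pearson's r was 0.647 (p = 0.0108), and 0.809 without the 48 h libraries (p = 0.00168, permutation test). The trend holds for regions within 50 kb that have the Cubn start nearest. It did not pass with every region in the gene body or within 50 kb counted, whichever start was nearest (rho = 0.564, adjusted p = 0.12, permutation test). There too, genes other than the members kept the nearest-start count.

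The region at the Cubn start, 189 bp upstream (13491829 to 13492176), was called at 48 h alone, in both libraries, at percentiles of 64.7 and 60.1. By then 5 other Cubn regions had opened. The earliest was the region 2.2 kb downstream (13489308 to 13489919, over an exon), with the 4 GATA words shown above. It had no peak at 0 h, percentiles of 23.0 and 25.5 at 2 h, 87.2 and 81.7 at 4 h, 91.2 and 94.7 at 8 h, 97.1 and 97.6 at 16 h, 96.1 and 95.3 at 24 h, and 94.2 and 96.8 at 48 h. Most of its climb fell between 2 and 4 h, where the percentiles of the libraries do not overlap.

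Upstream of Cubn, 4 regions opened at 8 or 16 h, and all 4 rose. The region 18.0 kb upstream, which lies within the neighbouring gene Trdmt1, had a peak in 1 library at 4 h (percentile 0.881) and in both from 8 h on, and stood at 84.4 and 89.5 at 48 h (p = 0.002, adjusted p = 0.013, exact permutation test). The region 5.77 kb upstream followed, with percentiles of 54.5 and 63.7 at 16 h and 79.1 and 75.1 at 48 h (p = 0.00117, adjusted p = 0.013, exact permutation test). The region 4.25 kb upstream opened at 8 h, at 14.7 and 43.2, and stood at 66.3 and 65.9 at 48 h. The fourth, 23.4 kb upstream and also within Trdmt1, opened at 16 h and ranked no higher than 27.6 in any library. A single region was lost, 19.9 kb downstream, and it was called again in both libraries at 16 h.

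Of the 7 transient regions at the 5 genes, 4 were at Cubn, 2 at Lrp2 and 1 at Dab2. At Cubn their times differed but overlapped. The region 5.1 kb downstream had a peak in each 2 h library and in 1 of the 4 h libraries. That 8.66 kb upstream had one in both at 4 and 8 h and in 1 library each at 2, 16 and 24 h. That 4.33 kb downstream had one in both at 8 and 16 h and in 1 at 4 h. That 15.5 kb upstream had one in both at 16 h and in 1 at 24 h. The region 4.33 kb downstream, with 2 GATA words, ranked highest of them, at 47.3 and 41.7 at 8 h and 20.8 and 42.0 at 16 h. None had a call at 48 h.

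**Figure D3:**
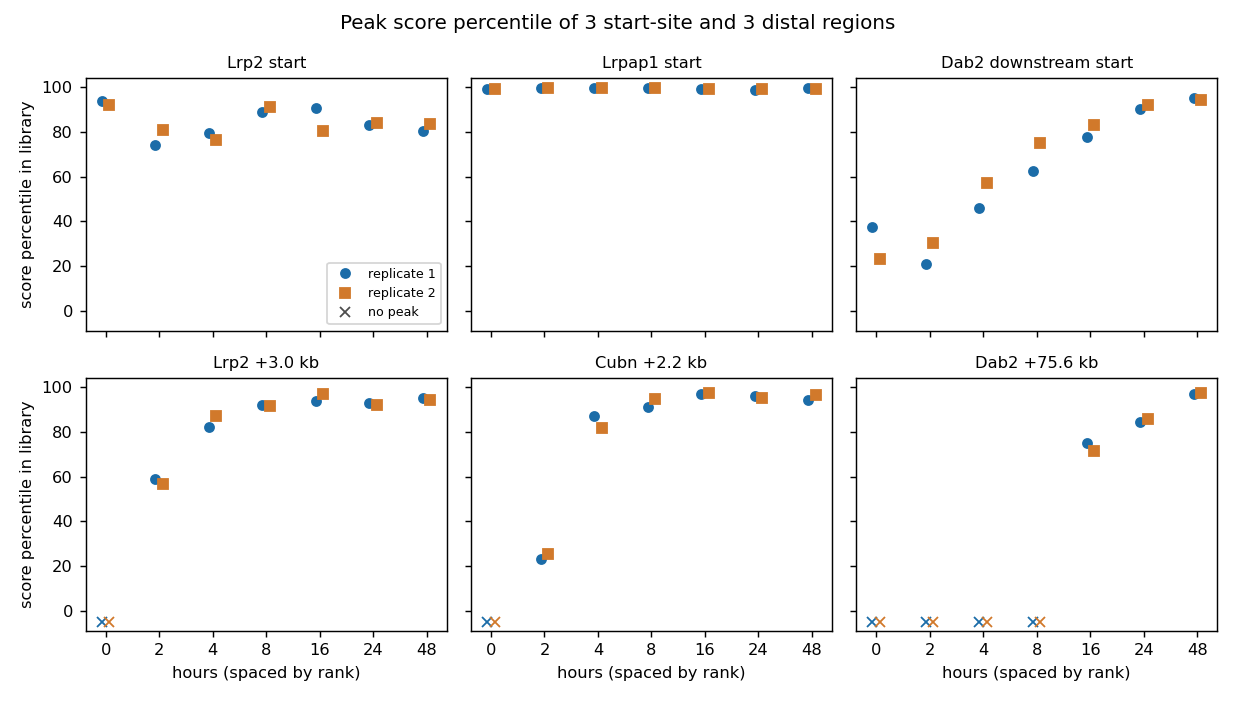
Score percentile within the library (y axis) over time (x axis, hours spaced by rank) for 3 regions over gene starts (top) and 3 away from them (bottom), with a circle for replicate 1, a square for replicate 2 and a cross where no peak was called. The regions at the Lrp2 and Lrpap1 starts show no trend, the downstream Dab2 start climbs from 37.4 and 23.0 to 95.4 and 94.3, and the other 3 go from no peak at 0 h to percentiles above 94 at 48 h.

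Amn (amnionless, ENSMUSG00000021278, chromosome 12, 111271095 to 111276426, plus strand), whose product carries cubilin to the surface, changed at few regions. The number called was 3 and 3 at 0 h, 1 and 4 at 2 h, 4 and 3 at 4 h, 3 and 4 at 8 h, 4 and 3 at 16 h, 4 and 4 at 24 h, and 4 and 5 at 48 h. Only the 24 and 48 h libraries all lay above 0 h. The count did not pass the test (rho = 0.641, p = 0.0166, adjusted p = 0.0716, permutation test), and r was 0.581 (p = 0.0362) and 0.44 without the 48 h libraries (p = 0.161, permutation test). It passed when the second 2 h library (adjusted p = 0.0396) or the second 16 h library (adjusted p = 0.0474, permutation test) was left out. With the starts of all coding transcripts in place of the gene start, Amn had 7 regions and the trend was weaker (rho = 0.369, adjusted p = 0.38, permutation test).

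The gained region with the highest mean percentile at 48 h among the 50 lay 2.99 kb upstream of Amn (111267703 to 111268511). It had no peak at 0 h and 1 at 2 h, at a percentile of 16.4. At 4 h it already stood at 94.0 and 93.5, at 8 h at 97.4 and 95.5, at 16 h at 99.8 and 99.7, at 24 h at 97.6 and 99.0, and at 48 h at 97.6 and 96.9 (p = 0.011, adjusted p = 0.0451, exact permutation test). The region went from no called peak to among the highest peaks of the library between 0 and 4 h. The start itself came late, as at Cubn. The region 335 bp upstream was called at 48 h alone, at 41.4 and 44.4, and that 59 bp upstream in 1 library at 48 h, at 18.8. Before them 3 other Amn regions had opened.

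A pair of Amn regions within the neighbouring gene Traf3 went opposite ways. The region 36.5 kb upstream was called in 1 library each at 0 and 2 h and in both from 4 h on, at percentiles from 36.9 at 0 h to 86.6 and 84.2 at 48 h (p = 0.11, adjusted p = 0.208, exact permutation test). The region 35.2 kb upstream was called in both libraries from 0 to 24 h, as high as 83.9 and 83.0 at 16 h, and in none at 48 h (adjusted p = 0.0541, exact permutation test). The rule gives both to Amn because its start is nearest, although they lie in Traf3.

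Lrpap1 (RAP, ENSMUSG00000029103, chromosome 5, 35091501 to 35105766, minus strand) gave the steadiest rise of the 5 genes. The number of called regions was 1 and 2 at 0 h, 3 and 4 at 2 h, 4 and 4 at 4 h, 6 and 6 at 8 h, and 8 in each library from 16 h on. The libraries up to 4 h all lay below those at 8 h, and those at 8 h below all later ones. The count rose (rho = 0.956, p = 1e-05, the smallest that 100000 shuffles can give, adjusted p = 0.00155, permutation test), with r = 0.769 (p = 0.00096) and 0.915 without the 48 h libraries (p = 2e-05, permutation test). At 48 h 7 of its 10 regions were gained and none was lost.

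Its start had a peak from the outset. The region there (35104328 to 35105911, midpoint 647 bp downstream, over an exon with UTR) had percentiles of 99.4 and 99.3 at 0 h and lay between 98.8 and 99.9 in all 14 libraries (rho = -0.461, adjusted p = 0.199, permutation test). The change was in regions around it. The intronic region 2.1 kb downstream, with 2 GATA words shown above, had no peak at 0 h, 1 at 2 h at a percentile of 48.8, and both from 4 h on, at 90.9 and 85.4 at 4 h and 83.7 and 81.1 at 48 h (p = 0.011, adjusted p = 0.0451, exact permutation test). The region 26.0 kb upstream opened at 2 h, at 71.5 and 61.3, reached 95.3 and 89.6 at 8 h, and stood at 87.8 and 82.6 at 48 h. The region 12.2 kb upstream was the latest, at 23.8 and 30.1 at 24 h and 86.5 and 82.5 at 48 h (p = 0.00333, adjusted p = 0.0206, exact permutation test).

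The other 3 rising regions of Lrpap1 ranked lower. The region 47.2 kb upstream opened at 8 h and stood at percentiles of 46.5 and 49.1 at 48 h, with 2 GATA words (p = 0.000666, adjusted p = 0.013, exact permutation test). The region 8.27 kb upstream opened at 16 h, at 10.9 and 38.0, and stood at 44.2 and 51.5 at 48 h (adjusted p = 0.013, exact permutation test). The region 16.7 kb downstream, beyond the end of the gene, was called in 1 library at 8 h and in both from 16 h on, at 26.2 and 33.9 and then at 67.6 and 62.9 at 48 h (p = 0.00117, adjusted p = 0.013, exact permutation test). Like the region 12.2 kb upstream, it ranked highest at 48 h.

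The region 40.0 kb upstream of Lrpap1 also opened at 2 h but peaked in the middle of the series. Its percentile was 30.9 and 46.2 at 2 h, 65.9 and 78.4 at 4 h, 79.6 and 72.4 at 8 h, 90.0 and 94.0 at 16 h, 72.0 and 69.0 at 24 h, and 20.4 and 35.5 at 48 h. The 48 h libraries lay below every library from 4 to 24 h, although both still called the region. A count of calls does not show such a decline.

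Dab2 (the clathrin adaptor, ENSMUSG00000022150, chromosome 15, 6299788 to 6440712, plus strand) was nearly without called regions by the gene-start rule. The number called was 0 in each library to 4 h, 1 and 1 at 8 h, 0 and 1 at 16 h, and 1 in each library at 24 and 48 h. The count passed the test (rho = 0.786, p = 0.00365, adjusted p = 0.0255, permutation test), with r = 0.672 (p = 0.00601) and 0.699 without the 48 h libraries (p = 0.0177, permutation test). Different regions made up these calls. The 8 h peaks were 20.5 kb downstream, the 16 h peak was 10.7 kb downstream, and the only lasting region was 39.6 kb upstream, at 53.1 and 56.1 at 24 h and 62.7 and 67.0 at 48 h (p = 0.002, adjusted p = 0.013, exact permutation test). The trend did not pass without the 0 h libraries (rho = 0.742, adjusted p = 0.0693) or with regions within 20 kb of the start (rho = 0.139, adjusted p = 0.944, permutation test).

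The annotated start of Dab2 is an upstream alternative start, and a downstream one lies beyond the 50 kb. With the starts of all coding transcripts in place of the gene start, Dab2 had 8 regions, of which 1 and 1 were called at 0 h, 1 and 1 at 2 h, 2 and 1 at 4 h, 2 and 3 at 8 h, 3 and 4 at 16 h, 3 and 3 at 24 h, and 3 and 4 at 48 h (rho = 0.879, adjusted p = 0.00577, permutation test). These regions were looked at after the gene-start result was seen.

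The downstream Dab2 start behaved unlike the starts of Lrp2 and Lrpap1. The region over it (6386304 to 6386969, 86.8 kb downstream of the gene start, over an exon with UTR) had a peak in all 14 libraries, but a weak one at first. Its percentile was 37.4 and 23.0 at 0 h, 20.7 and 30.2 at 2 h, 45.9 and 57.2 at 4 h, 62.4 and 75.3 at 8 h, 77.7 and 83.0 at 16 h, 90.2 and 91.9 at 24 h, and 95.4 and 94.3 at 48 h. The 0 and 2 h libraries overlapped, and from 4 h on the libraries of each time point lay above those of the one before. The rise passed the test over all regions called everywhere (rho = 0.966, p = 1e-05, adjusted p = 0.000752, permutation test).

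The intronic region 75.6 kb downstream of the Dab2 gene start (6375021 to 6375701) opened later and higher. It had no peak up to 8 h, percentiles of 75.2 and 71.6 at 16 h, 84.6 and 85.8 at 24 h, and 97.2 and 97.7 at 48 h (p = 0.000666, adjusted p = 0.013, exact permutation test). This region lies between the gene start and the downstream start, and its central 200 bp, shown above, hold no GATA word.

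**Figure D4:**
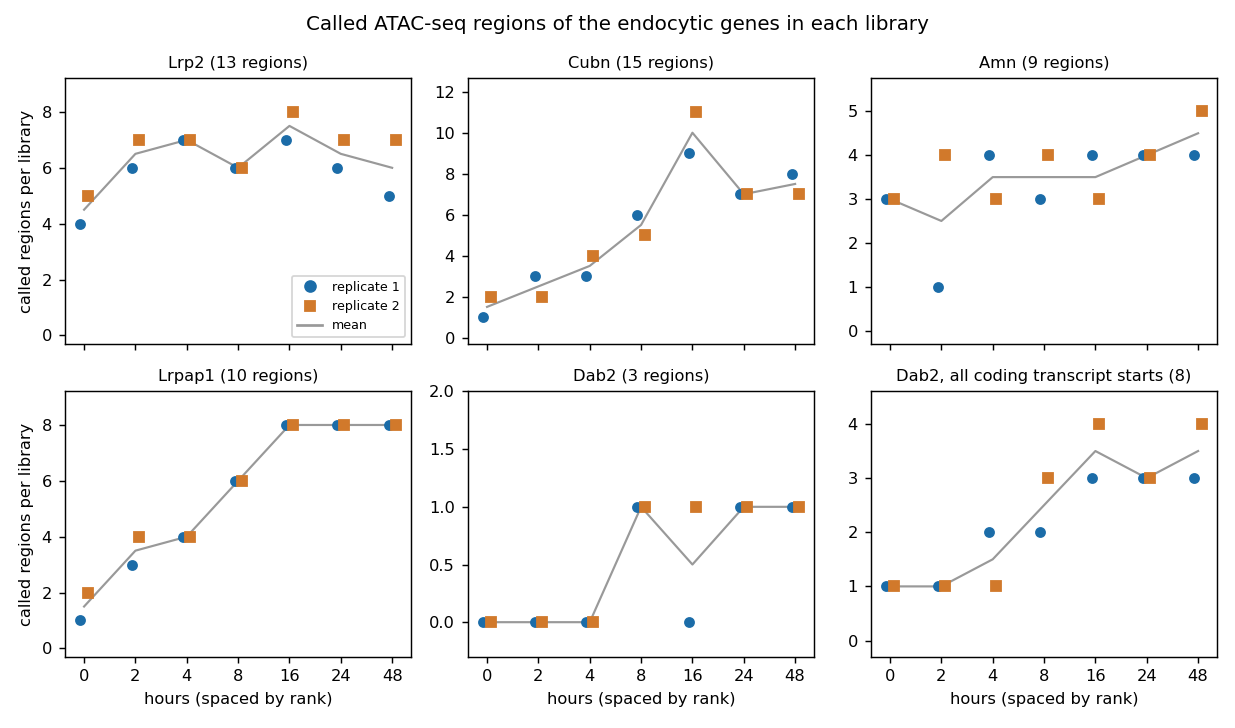
Number of called regions per library (y axis) over time (x axis, hours spaced by rank) for each gene, with replicate 1 as circles, replicate 2 as squares and their mean as a line. The last panel counts the 8 Dab2 regions found with the starts of all coding transcripts. Lrpap1 goes from 1 and 2 to 8 in each library, Cubn from 1 and 2 to a high of 9 and 11 at 16 h, and Lrp2 shows no trend.

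Side by side, the starts of the 5 genes differed in when a peak was called there. The regions at the Lrp2, Lrpap1 and downstream Dab2 starts were called in all 14 libraries. Those at the Cubn and Amn starts were first called at 48 h, after 5 and 3 other regions of these genes had opened. The RefSeq promoters of the 5 genes (GRCm38.p6, a short window around each start, 6 promoters) were searched for the same words. None of the 5 promoters that overlap one of these regions holds a GATA word, and the upstream Dab2 promoter, which overlaps none, holds 2. Of all 32851 promoters in that table, 29.8% hold a GATA word. In the central 200 bp of the called start regions themselves, that of Lrpap1 holds 2 GATA words and the others none.

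**Figure D5:**
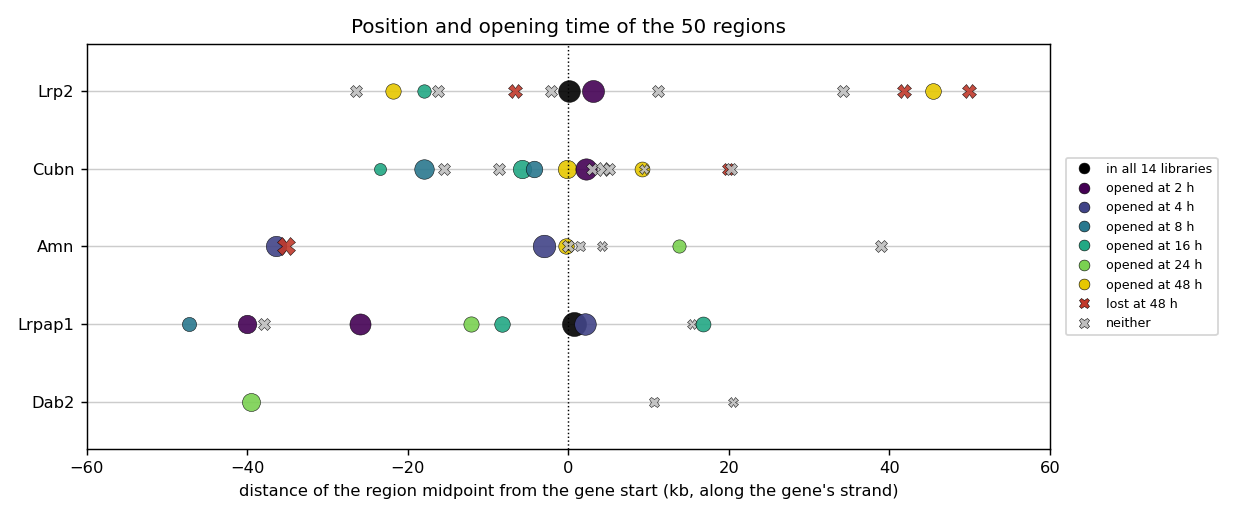
The 50 regions placed by the distance of their midpoint from the gene start (x axis, kb along the gene's strand; 1 row per gene), coloured by opening time, with crosses for regions that were lost or never opened for good and larger symbols for a higher mean score percentile. The regions opened at 2 or 4 h lie both within 5 kb of a start (Lrp2, Cubn, Amn, Lrpap1) and far upstream (Lrpap1 26.0 and 40.0 kb, Amn 36.5 kb).

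GATA words were in 54.4% of all assigned regions gained at 48 h and in 28.6% of those not gained. In the central 200 bp, 13 of the 21 gained member regions held a word (61.9%, exact binomial 95% interval 38.4 to 81.9). Of the 29 member regions that were not gained 13 held one (44.8%, interval 26.4 to 64.3). The intervals for the members overlap, so their difference is not resolved at this number of regions. Words with the same letters in another order (AAGTAA or AAGTAG or TAGTAA or TAGTAG) were in 4 of the 21 gained member regions (19.0%) and in 22.7% of all gained regions. Among the member regions that opened at 2 to 8 h 7 of 10 held a GATA word, and among those that opened at 16 to 48 h 6 of 13 did. Over all assigned regions these shares were 47.6% and 39.5%, and the reordered words were in 3 of the 10 and 1 of the 13. Of the 7 member regions that opened at 2 or 4 h 5 held a GATA word in the central 200 bp. The exceptions were those 26.0 kb upstream of Lrpap1 and 36.5 kb upstream of Amn. Over the whole region, all 10 that opened at 2 to 8 h held a GATA word and 6 a reordered word. Over all assigned regions opened at these times the shares were 71.1% and 49.5%.

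Of other words, those of SOX factors (ACAAAG or ACAATA or ACAATG) were in 12 of the 21 gained member regions (57.1%, interval 34.0 to 78.2) and in 42.0% of all gained regions. AP-1 words (TGACTCA or TGAGTCA) were in 0 of the 21, which allows a share of up to 16.1% (exact binomial 95% interval), and in 4.83% of all gained regions.

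Genes of the rest of the endocytic pathway passed the test about as often as genes at large. Over 3 lists 6 of 43 genes tested rose (14%) and 2 fell (4.65%), beside 10.3% and 8.75% of all genes tested. Of 17 coat and adaptor genes 14 could be tested, of which 2 rose and 1 fell, with a median rho of 0.0806. Myo6, the myosin that moves endocytic vesicles inwards, went from 3 and 2 called regions at 0 h to 9 and 9 at 48 h (rho = 0.87, adjusted p = 0.00559, permutation test). Ap2a2, a subunit of the clathrin adaptor AP-2, went from 4 and 4 to 5 and 7 (rho = 0.796, adjusted p = 0.0149, permutation test). Gipc1, which couples receptor tails to Myo6, went from 4 and 2 to 1 and 1 (rho = -0.877, adjusted p = 0.00723, permutation test).

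Of 18 endosome and lysosome genes 15 could be tested, of which 3 rose and 1 fell, with a median rho of 0.289. The genes that rose were the proteases Ctsl (2 and 2 regions at 0 h, 7 and 8 at 48 h, adjusted p = 0.0125) and Lgmn (5 and 5, then 10 and 9, adjusted p = 0.0313) and the lysosomal membrane protein Lamp1 (0 and 0, then 2 and 2, adjusted p = 0.0171, permutation test). Lamp2, a second membrane protein of the lysosome, fell from 5 and 5 to 3 and 3 (adjusted p = 0.0205, permutation test). Of 15 other endocytic receptors 14 could be tested, and 1 rose, with a median rho of 0.0607. This was Igf2r, the receptor for mannose 6-phosphate and IGF2, with 2 and 1 regions at 0 h and 6 and 6 at 48 h (adjusted p = 0.0093, permutation test). Over all 16259 genes the median rho was 0.0. Of the 5 members 3 rose, beside 10.3% of all genes tested.

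Other genes followed the members' counts closely, which describes their shape over the 14 libraries and nothing more. Among 11555 genes with at least 3 regions, the most similar to Lrpap1 by Pearson's r was Klk5 (0.988), and 107 genes reached an r of 0.9. For Cubn they were Car12 (0.949) and Nrg2 (0.945), with 37 genes at that level. For Dab2 they were Tjp3 (0.937) and Wwc2 (0.931), for Lrp2 Mdga1 (0.901) and Prkag3 (0.884), and for Amn Slc25a43 (0.843) and Sh2b3 (0.841). The points share their libraries and their peak numbers, and no p is given.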

How the data were processed

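ATAC-seq libraries were made by the authors from ES cells at 7 time points and run through the ATAC-seq pipeline of ENCODE. The lists carry in their names an irreproducible discovery rate of 0.05 between pseudoreplicates of each library, and the removal of blacklisted regions. The labels name mm10 (GRCm38) and deepTools. Each deposited list gives position and an unnamed score, which the authors' files do not define, so the score was used only as a percentile within its list, taking the highest peak in a region. The lists hold no read counts, so the study's read-count test of 48 h against 0 h was not run.

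The 839049 peaks were merged with Python 3.11.15 (numpy 2.4.6, pandas 2.3.3, scipy 1.17.1, matplotlib 3.10.9) and assigned with GENCODE vM21 (21951 protein-coding genes). Trends over time were tested by permutation with Benjamini-Hochberg adjustment at 0.05 and checked on simulated data. The study's closest-start rule of up to 50 kb was followed. The members, lists and rules were chosen with earlier results of these data known. Regions named are those within 1 kb of a start, up to 3 gained per gene with the highest percentile at 48 h, up to 3 lost, and those called in all 14 libraries. The other regions, among them the transient ones, those of Cubn 4.25 and 23.4 kb upstream, of Amn 36.5 and of Lrpap1 40.0 kb upstream, and those of Dab2 beyond 50 kb, were named after their values were seen. Groups came from the labels. Alternatives covered peak number, coverage, distance, start, merging, the replicate block and leaving out libraries. Intervals cover counting error only. A few genes that the rules would name are not reported here.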

Additional observations from a re-analysis of the deposited data

Results flagged for a closer look

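The region over the Lrpap1 start lay above both 0 h libraries (percentiles 99.4 and 99.3) at 2, 4 and 8 h, with a mean of 99.9 at 2 h, and below both at 24 h (98.8 and 99.2). The difference between these time points was not tested, and the whole range over the 14 libraries was 98.8 to 99.9.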

How the results depend on the processing

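Apart from leaving out single libraries, 131 alternatives were computed over 17 results, and 103 kept the direction and the side of the threshold, or a count within 1.5 times. When each list was cut to its 50000 best peaks, 22 regions rose, 4 fell, Amn passed (rho 0.818) and the median opening was 24 h. At that setting 2092 of all 15477 genes tested rose, beside 1667 of 16259 in the main one. With 50% of a region required to be covered, 1 region was shared and Amn passed (0.785). Within 20 kb there were 33 regions, 2 lost, 1 falling and 15 opened, Amn passed (0.732) and Dab2 did not (0.139). Within 100 kb 5 regions were shared. Counting each region in a gene body or within 50 kb, whichever start was nearest, there were 87 regions, 5 shared and 4 falling. By this count, which was used for the member genes alone, Lrp2 passed (0.738) and Cubn did not (0.564). With 1 library enough, 10 were lost and 4 shared. Without the 0 h libraries Lrp2 reversed (-0.108), Dab2 did not pass (0.742), the percentile of the Lrp2 start reversed (0.396) and that of the Lrpap1 start passed (-0.792). Opening by the first time point with both libraries had a median of 8 h. Counting 48 h against 2 h, an alternative added after seeing the data, 7 were shared. Over the whole region, GATA words were in 85.7% of gained member regions and the permuted words in 52.4%. In the central 200 bp these shares were 61.9% and 19.0%. The causes were not tested.

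Leaving out 1 library at a time gave 21 to 24 gained, 5 to 9 lost, 2 to 3 shared, 9 to 15 rising, 2 to 3 falling and 23 to 26 opened regions, with a median opening of 8 to 16 h (8 without the second 8 h library). Spearman's coefficient ranged from 0.114 to 0.513 for Lrp2, 0.844 to 0.922 for Cubn, 0.551 to 0.734 for Amn, 0.769 to 0.873 for Dab2 and 0.944 to 0.964 for Lrpap1. For the percentiles of the starts it was -0.255 to 0.0942 for Lrp2 (reversed without either 0 h library), -0.657 to -0.393 for Lrpap1 and 0.958 to 0.983 for Dab2.

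Deviations of same-numbered libraries correlated between -0.0152 and 0.0124 over 21 pairs of time points. This does not settle whether replicate numbers pair the libraries, since replicate 2 had the longer list at 7 of 7 time points. With the number as a replicate block 9 regions rose and 2 fell, rho was 0.331 for Lrp2, 0.874 for Cubn, 0.647 for Amn, 0.794 for Dab2 and 0.957 for Lrpap1, and no call on these genes changed. The 3 rising calls that the block took away were Lrp2 21.8 kb upstream, Amn 2.99 kb upstream and Lrpap1 2.1 kb downstream, each at an adjusted p of 0.0451 without it and 0.0555 with it (exact permutation test).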

Other observations

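The bodies of Cubn and Lrp2 reach far beyond 50 kb from their starts, and the regions there were looked at after the results above. In Cubn 14 further regions lay in the gene body, and 8 of them were transient (beside 12.4% of all assigned regions), 1 gained, 2 lost and 2 called in all 14 libraries. The transient ones included the intronic region 188 kb downstream, called in both libraries from 2 to 16 h and in none at 0, 24 and 48 h. By the nearest-start rule that region belongs to another gene. The region 114 kb downstream was called in both libraries at 4 and 8 h alone. The regions 119 and 78.1 kb downstream were called throughout. The region 121 kb downstream was called up to 16 h and fell (p = 0.002, adjusted p = 0.013, exact permutation test), and that 92.7 kb downstream was called at 0 and 2 h alone and fell with the same p. The gained one, 97.5 kb downstream, was called in all 12 libraries from 2 h on.

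In Lrp2 5 further regions lay in the gene body. The 2 that were gained, 140 and 158 kb downstream, were called at 48 h alone, in both libraries. By the nearest-start rule the region 158 kb downstream belongs to another gene. A further region was transient, 55.0 kb downstream at 8 and 16 h.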
